A study of Rattus norvegicus with 8 samples.

Results

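The genes described here encode the machinery of synaptic vesicles and transmitter release. They form a list of 48 genes given by name. The rule uses no measured value, but the list was drawn up with earlier results of these data known. On the expression array 46 of the 48 had at least 1 probe set that the platform annotation pairs with a single gene symbol, out of 14217 genes in all. Doc2a and Erc2 had none, so no signal is given for them, though Erc2 enters the counts of promoter windows below. Where a gene had several probe sets, the brightest one over the 8 arrays stands for it. The mean signal of 34 genes reached the brightness filter, and those 34 were tested. The other 12, among them Syt2, Rims1, Unc13a and Pclo, lay under it and are given as values without a test.

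Each array held total RNA of rat hippocampal slice cultures, explants of brain tissue kept alive in a dish, from which 1 pyramidal cell field had been dissected. There was 1 CA3 lesion array with 3 CA3 control arrays, and 1 CA1 lesion array with 3 CA1 control arrays. All are labelled 7 days, and RNA of 15 cultures was pooled on each array. The labels name no strain, age or agent. How the lesion was made and when the count of days began are not in them either. Nothing in them says that the control arrays came from separate animals or preparations, so the p-values measure the spread between these arrays, which may be technical. A single array stands for each lesion group, and its spread was assumed to equal that of the controls.

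As background, a nerve terminal fills vesicles with transmitter, docks and primes them at a protein scaffold called the active zone, and fuses them with the cell membrane when calcium enters. SNARE proteins on the vesicle and on the cell membrane zip together to drive fusion, and some of the synaptotagmins sense the calcium. Dynamin, amphiphysin and their partners retrieve the membrane. CA3 pyramidal cells receive the mossy fibres of the dentate gyrus and send axons to one another and to CA1, which lies downstream of them in the hippocampal circuit. A gene's mRNA reports on the cell bodies in the dissected field and not on the axons that end there.

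Values below are log2(value + 16) of the deposited intensities unless stated otherwise. A difference is on that scale, so 1 unit is a 2-fold change, and folds of dim probe sets are understated. Signals of different probe sets are not compared in level, because probes differ in brightness for the same amount of RNA. A gene is said to pass when its adjusted p lay under 0.05 in limma, with adjustment over all 18625 probe sets tested. The dissection labels matched the field markers. All 6 tested CA1 pyramidal markers had their 3 CA3 control arrays below all 3 CA1 control arrays. Mpped1, a CA1 marker, read 12.36 in the CA3 lesion array and 12.01 on average in CA3 controls, against 15.40 in the CA1 lesion array and 15.70 in CA1 controls. Of 5 tested CA3 markers, 3 had all CA3 control arrays above all CA1 control arrays, among them the kainate receptor gene Grik4.

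**Figure D1:**
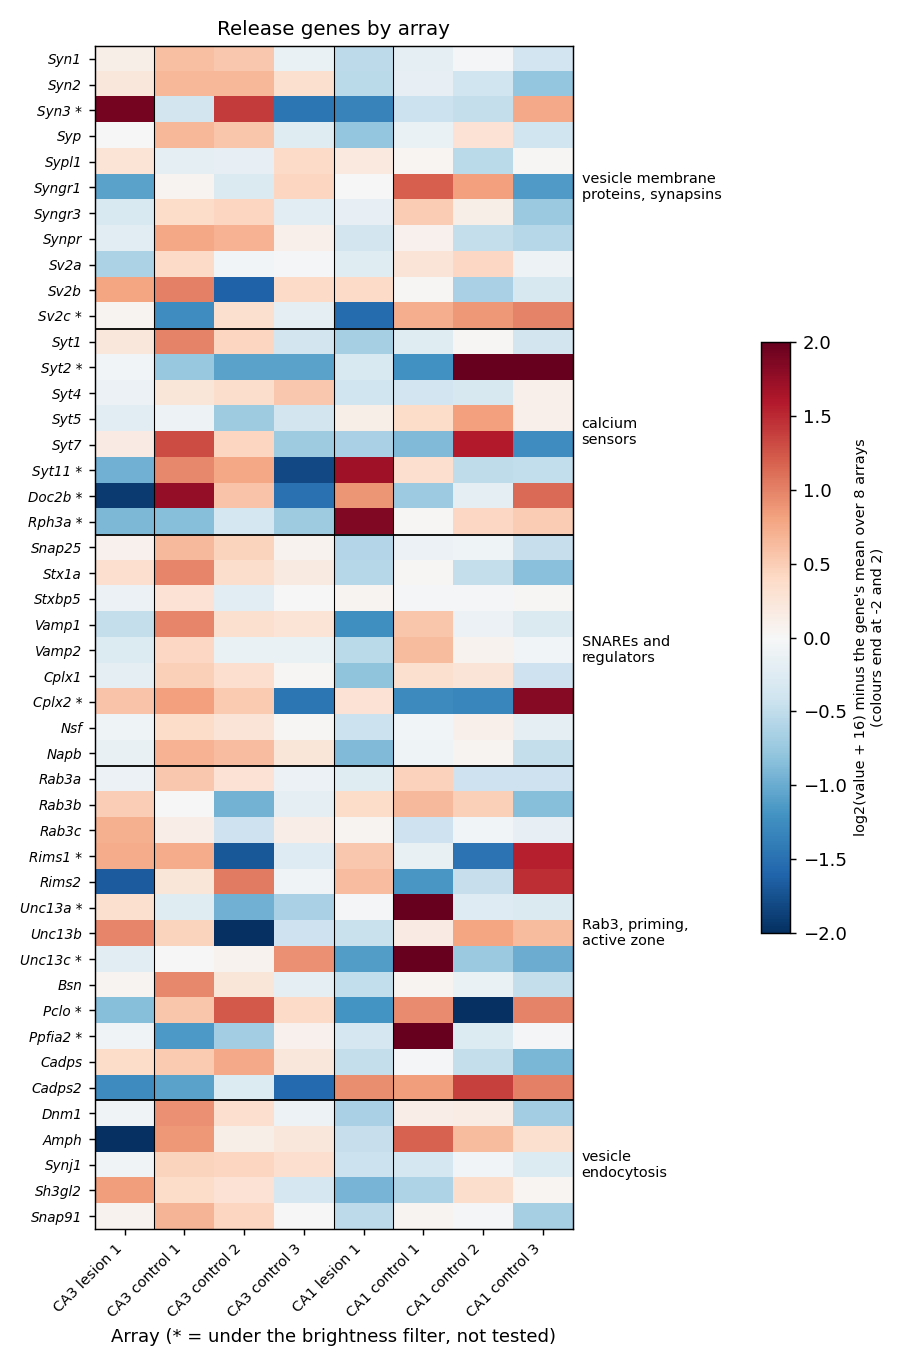
Signal of the 46 release genes with a probe set (rows, grouped by role) on the 8 arrays (columns), as log2(value + 16) minus the gene's mean over the arrays; red is above and blue below that mean, and colours end at -2 and 2. CA3 controls 1 and 2 were above the mean for most tested genes, while Cadps2 ran the other way, and the 12 genes marked with an asterisk, which lay under the brightness filter, scattered without a shared pattern.

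CA3 controls carried more signal than CA1 controls for most of the tested release genes, and 1 gene, Cadps2, ran strongly the other way. Cadps2 was 4.09-fold lower in CA3 and was the only list member past the threshold. Of the 34 tested genes, 26 were higher in CA3 and 8 lower, with a median difference of 0.38, against a median of -0.03 over the 10844 genes tested. With the 12 dim genes included, 31 of 46 were higher and the median was 0.22, against -0.06 over all 14217 genes. The median over the tested genes was 0.22 without CA3 control 1, 0.24 without CA1 control 3 and 0.21 when each gene was the mean of its probe sets. As a list the fields overlapped. The median of the 34 genes, each relative to its mean over the 8 arrays, was 0.50, 0.33 and 0.01 in CA3 controls 1 to 3. In CA1 controls it was 0.04, -0.01 and -0.37, so CA3 control 3 lay under CA1 control 1. Among all genes tested 0.332% passed as higher in CA3 and 0.286% as lower, beside 0 and 1 of the 34 release genes.

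In 8 of the 34 genes all 3 CA3 control arrays lay above all 3 CA1 control arrays, which is 23.5% of them, and the same held for 6.35% of all genes tested. They were Syn2, Cadps, Napb, Synpr, Synj1, Snap25, Syt4 and Stx1a, and 0 of these 8 passed. In 2 genes, Cadps2 and Syt5, the CA3 arrays lay below all CA1 arrays, which is 5.88% beside 8.76% of all genes. Among the 46 genes with a probe set these counts were 8 (17.4%) and 4 (8.70%), beside 5.51% and 8.64% of all 14217 genes, so the share lower in CA3 was that of all genes. An unadjusted p under 0.05 was reached by 12 tested members, 10 higher and 2 lower in CA3, while 4.09% of all genes tested reached it as higher and 4.67% as lower. These 12 were the 10 genes just named together with Syn1 and Snap91, both higher.

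**Figure D2:**
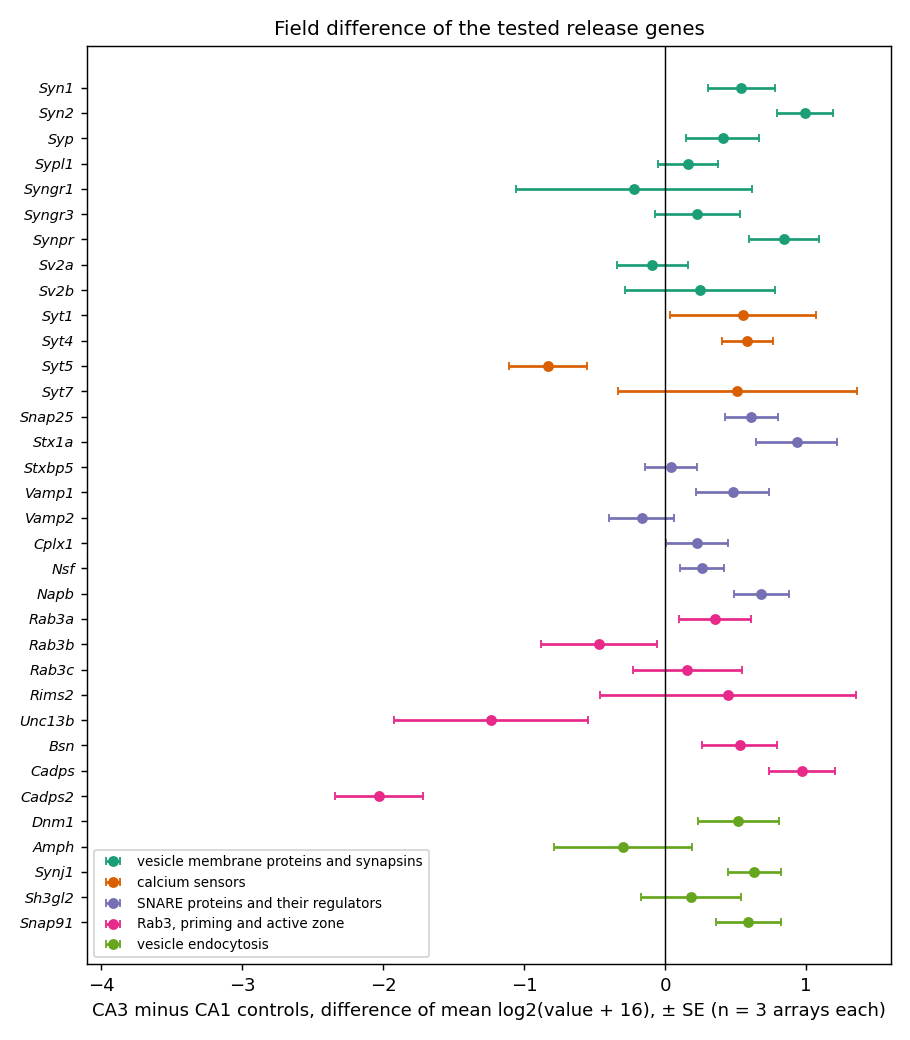
Difference of CA3 minus CA1 control means for the 34 tested release genes (rows), in log2(value + 16), with the standard error of the limma fit as bars (n = 3 arrays per field) and colours by role. Most points lie right of 0, between 0.04 and 1.00, and Cadps2 lies farthest from 0, at -2.03.

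Cadps and Cadps2 encode the 2 members of a protein family that primes vesicles for calcium-triggered release, best known for dense-core vesicles. Cadps2 read 10.90, 11.69 and 10.41 in CA3 controls 1 to 3, against 12.80, 13.33 and 12.97 in the CA1 controls. The lowest CA1 array was thus above the highest CA3 array. That gap was wider than the range of the CA1 arrays but narrower than the range of the CA3 arrays. The difference was -2.03 ± 0.31 (SE, 3 control arrays in each field, limma adjusted p = 0.0219). The call did not hold when any of 4 single control arrays was left out: the adjusted p was 0.114 without CA3 control 1, 0.0709 without CA1 control 1, 0.154 without CA1 control 2 and 0.0539 without CA1 control 3, with differences from -2.15 to -1.88. It was 0.24 without an intensity trend in the variances and 0.322 with control 1 left out in both fields together. The lesion arrays kept the split between the fields, with 10.71 in the CA3 lesion array and 12.89 in the CA1 lesion array.

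Cadps ran the opposite way. It read 15.11, 15.33 and 14.81 in CA3 controls 1 to 3, against 14.56, 14.11 and 13.67 in the CA1 controls. The 2 fields did not overlap, and the difference of 0.97 ± 0.23 (SE, 1.96-fold) did not pass (limma adjusted p = 0.159). In the lesion arrays it read 14.95 in CA3 and 14.10 in CA1, again higher in CA3. A dimmer probe set of Cadps, under the filter, differed by 0.38 with overlapping arrays.

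The promoter windows of the 2 paralogs are shown because their control means differed between the fields in opposite directions, though only Cadps2 passed. Each runs from 250 bases before to 50 bases after the gene's start in RefSeq's GRCr8 table, Cadps2 at chr4:53274955-53275254 on the minus strand and Cadps at chr15:14720476-14720775 on the plus strand. Capitals mark the GC box letters GGGCGG on either strand, with no overlap of sites.
Cadps2: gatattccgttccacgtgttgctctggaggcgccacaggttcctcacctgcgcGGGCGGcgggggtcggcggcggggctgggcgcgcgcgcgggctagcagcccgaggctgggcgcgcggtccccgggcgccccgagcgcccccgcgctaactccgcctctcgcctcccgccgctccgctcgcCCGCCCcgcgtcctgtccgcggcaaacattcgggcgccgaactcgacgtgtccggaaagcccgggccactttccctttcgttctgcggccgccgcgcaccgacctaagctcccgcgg
Cadps: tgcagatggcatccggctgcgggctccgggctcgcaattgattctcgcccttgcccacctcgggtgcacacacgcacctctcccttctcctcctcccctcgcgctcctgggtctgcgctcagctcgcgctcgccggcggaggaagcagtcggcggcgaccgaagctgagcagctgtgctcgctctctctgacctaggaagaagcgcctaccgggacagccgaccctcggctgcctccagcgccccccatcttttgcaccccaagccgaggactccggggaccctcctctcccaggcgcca
The Cadps2 window holds 2 GC boxes, which begin 197 and 67 bases before the start, and the Cadps window holds 0. Such a match describes the letters only. Of the 48 genes 36 have a window in the table, and 25 of the 36 (69.4%) hold a GC box, against 34.9% of 27457 promoters. TATAAA occurs in 0 of the 36, against 14.3% of all promoters. TTCAGCACC, the opening letters of the RE1 element bound by the neuronal gene repressor REST, occurs in 1, Unc13a, against 0.379% of all.

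Among vesicle membrane proteins and synapsins, 7 of 9 tested genes were higher in CA3 and 0 passed. Syn2, a synapsin that tethers vesicles in the reserve pool, read 14.35, 14.35 and 14.00 in CA3 controls, against 13.52, 13.29 and 12.91 in CA1 controls. Its arrays did not overlap, and all 3 of its probe sets were higher in CA3, by 1.00, 0.78 and 0.63. The brightest differed by 1.00 ± 0.20 (SE, 1.99-fold, limma adjusted p = 0.0768), and with no brightness filter the adjusted p was 0.0460. Syn1 read 12.75, 12.68 and 12.00 in CA3 controls, against 11.95, 12.10 and 11.77 in CA1 controls, so that CA3 control 3 lay inside the CA1 range. Synpr encodes synaptoporin, a relative of synaptophysin known from mossy fibre terminals. It read 13.50, 13.42 and 12.83 in CA3 controls, against 12.81, 12.25 and 12.15 in CA1 controls, and CA3 control 3 and CA1 control 1 all but touched (difference 0.84 ± 0.25, SE, limma adjusted p = 0.304). The second probe set of Synpr differed by 0.17.

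The remaining tested vesicle membrane genes overlapped between the fields. Synaptophysin (Syp) averaged 15.03 ± 0.50 in CA3 controls and 14.62 ± 0.35 in CA1 controls (SD, n = 3 each). Sv2a, the vesicle glycoprotein bound by the antiepileptic drug levetiracetam, averaged 11.23 ± 0.24 in CA3 and 11.32 ± 0.26 in CA1. Sypl1, a broadly expressed synaptophysin relative, averaged 15.39 ± 0.32 and 15.23 ± 0.33 in the same order. Syngr3, a synaptogyrin, differed by 0.23, and Sv2b by 0.25 with CA3 control 2 at 12.36, far under its other CA3 controls at 14.99 and 14.37. Syngr1 differed by -0.22 with a CA1 spread of 1.25 (SD, n = 3).

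**Figure D3:**
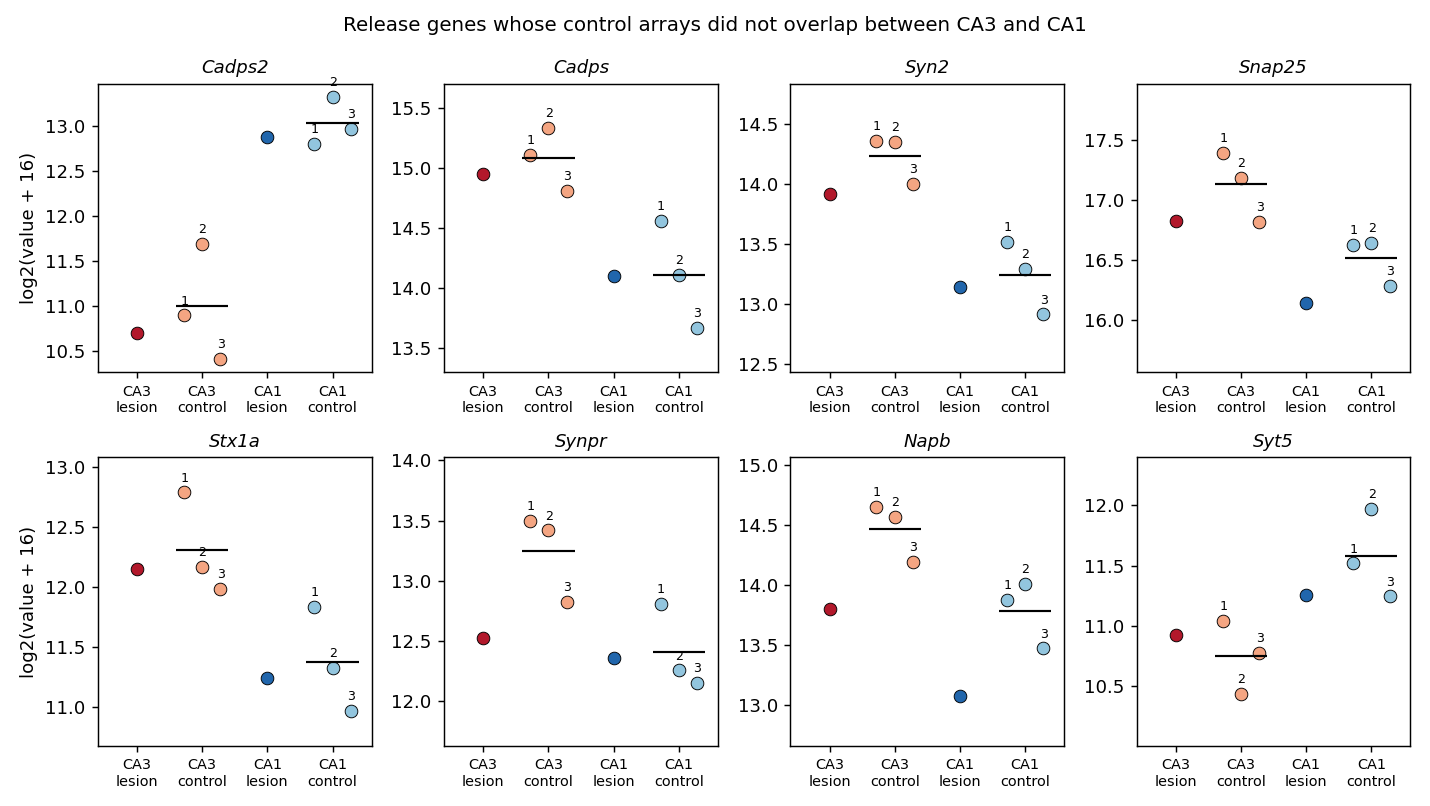
Signal, in log2(value + 16), of 8 release genes whose control arrays did not overlap between CA3 and CA1; each point is 1 array, numbers give the control array, and lines are control means. Cadps2 and Syt5 were lower in CA3 controls, the other 6 genes higher, and in all 8 the CA3 and CA1 lesion arrays kept the same order of the fields as the controls.

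SNARE genes and their regulators leaned towards CA3, with 7 of 8 tested genes higher and 0 past the threshold. Snap25, a SNARE of the cell membrane, read 17.39, 17.18 and 16.82 in CA3 controls, against 16.63, 16.64 and 16.28 in CA1 controls (difference 0.61 ± 0.19, SE, limma adjusted p = 0.340). Its partner on the cell membrane, Stx1a (syntaxin), read 12.79, 12.16 and 11.98 in CA3, against 11.83, 11.33 and 10.97 in CA1. The fields did not overlap in either gene. For Stx1a the difference was 0.93 ± 0.29 (SE, limma adjusted p = 0.350), but a dimmer probe set differed by -0.16, and the mean of both probe sets by 0.39.

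Napb encodes a neuronal adaptor for Nsf, the ATPase that takes used SNARE complexes apart. Napb read 14.65, 14.57 and 14.19 in CA3 controls, against 13.88, 14.01 and 13.47 in CA1 controls, without overlap (0.68 ± 0.20, SE, limma adjusted p = 0.294). Nsf itself differed by 0.26, and its 2 dimmer probe sets by 0.66 and 0.70. Of the vesicle SNAREs, Vamp1 differed by 0.48 and Vamp2 by -0.17, both with overlapping arrays. The other probe sets of Vamp1 differed by 0.14 and, under the filter and with all CA3 arrays below all CA1 arrays, by -1.83. Cplx1, a complexin that clamps and then promotes fusion, differed by 0.22, and its dimmer probe set by -1.25 with all CA3 arrays below all CA1 arrays. Stxbp5 (tomosyn), an inhibitor of SNARE assembly, averaged 12.83 ± 0.25 in CA3 and 12.79 ± 0.03 in CA1 (SD, n = 3 each).

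Synaptotagmins and related genes are grouped here as calcium sensors, though a sensor role of each was not tested. Of this group 4 of 8 with a probe set could be tested, and they were divided. Syt4, a synaptotagmin of dense-core vesicles, read 14.21, 14.32 and 14.50 in CA3 controls, against 13.58, 13.65 and 14.06 in CA1 controls (0.58 ± 0.18, SE, limma adjusted p = 0.348). Syt5 was lower in CA3, at 11.04, 10.43 and 10.77, against 11.52, 11.97 and 11.24 in CA1 controls (-0.83 ± 0.28, SE, limma adjusted p = 0.409). In both genes the fields did not overlap, and neither passed. Syt1, the main sensor of fast release, differed by 0.55 ± 0.52 (SE). Syt7, a sensor of slower release, differed by 0.51 with the used probe set and by -1.11 with another tested one.

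Of the Rab3, priming and active zone genes with a probe set, 8 of 13 were tested, and 5 were higher and 3 lower in CA3. Beside Cadps and Cadps2, the scaffold gene Bsn (bassoon) differed by 0.53 and Rab3a, the main vesicle Rab protein, by 0.36, both with overlapping arrays. A dim probe set of Bsn, under the filter, differed by -1.21 with all CA3 arrays below all CA1 arrays. Rab3b differed by -0.47 and Rab3c by 0.16. Unc13b, a Munc13 priming factor, differed by -1.24 ± 0.69 (SE), with 9.54, 6.94 and 8.69 in CA3 controls, against 9.26, 9.89 and 9.72 in CA1 controls. The CA3 arrays of Unc13b thus spread far more than those of CA1. Rims2, a Rab3 effector of the active zone, lay just above the brightness filter with a mean of 8.37.

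Of the 5 endocytosis genes 4 were higher in CA3. Synj1, a lipid phosphatase that helps to uncoat retrieved vesicles, had tight arrays of 12.54, 12.52 and 12.43 in CA3 controls, against 11.74, 12.03 and 11.82 in CA1 controls (0.63 ± 0.19, SE, limma adjusted p = 0.315). Dynamin (Dnm1), the GTPase that pinches vesicles off, differed by 0.52, and the clathrin adaptor gene Snap91 by 0.59, each with overlapping arrays. A dim probe set of Snap91, under the filter, differed by -1.44. Sh3gl2 (endophilin) differed by 0.18 and amphiphysin (Amph) by -0.30.

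Among the 12 dim genes the arrays scattered by several units, and no test was made. Sv2c read 6.73, 8.29 and 7.78 in CA3 controls, against 8.70, 8.83 and 8.96 in CA1 controls. Rph3a (rabphilin), a Rab3 effector, read 5.95, 6.46 and 6.10 in CA3, against 6.83, 7.22 and 7.32 in CA1. These were the only 2 dim genes without overlap between the fields, both lower in CA3. Syt2, a fast calcium sensor, read 5.61, 5.30 and 5.30 in CA3 controls, against 5.16, 8.46 and 8.73 in CA1 controls, so CA1 control 1 sided with CA3. The remaining dim genes, Syn3, Syt11, Doc2b, Cplx2, Rims1, Unc13a, Unc13c, Pclo and Ppfia2, had means from 6.23 for Unc13c to 8.13 for Doc2b and overlapped between the fields.

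A wider set of release and vesicle-cycle genes gave a smaller median shift. Of 67 listed genes outside the 48, 58 had a probe set and 47 were tested. In CA3 25 were higher and 22 lower, with a median of 0.06, and 0 passed. All 3 CA3 control arrays still lay above all 3 CA1 control arrays in 8 of the 47 (17.0%), and below in 1 (2.13%). Among all genes tested these shares were 6.35% and 8.76%. An unadjusted p under 0.05 in limma was reached by 7 of the 47, all higher. The 3 with the smallest p among those higher were the presynaptic adhesion gene Nrxn3 (1.16 ± 0.24, SE, limma adjusted p = 0.0939), the active zone gene Erc1 (1.12, adjusted p = 0.108) and Napg (0.72, adjusted p = 0.217), the gamma relative of Napb. Those lower were Ppfia3 (-0.53), Rab27b (-1.03) and Ap2b1 (-0.25), with adjusted p-values from 0.678 to 0.793. Neuronal genes in neither release list, called outside release below, leaned the same way. Of these, 13 of 20 were higher in CA3, with a median of 0.29, and the neurofilament gene Nefl alone passed. Markers of other cells leaned the other way. Of 9 tested interneuron markers 7 were lower in CA3, with a median of -0.63, and the neuropeptide gene Cck passed (-2.16 ± 0.24, SE, limma adjusted p = 0.00453). Of the microglia markers 8 of 11 were lower (median -0.35) and of the astrocyte markers 7 of 9 (median -0.21), while 6 of 9 myelin genes were higher (median 0.26), and 0 of these passed. The part of these genes in the field difference of the release genes was not tested. In bulk RNA, fewer cells of a type and less RNA per cell cannot be told apart.

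Lesion arrays carried less signal than the control mean for most tested release genes, but 0 of 34 passed in limma for the mean lesion effect, and 6, all lower, had an unadjusted p under 0.05. Of all genes tested 2.85% reached that p as higher and 3.44% as lower. Over all genes tested 0% passed in this comparison, so an absent call does not set these genes apart. Of the 34 genes 29 were lower and 5 higher, with a median of -0.31, against 0.03 over the 10844 genes tested. Among the 46 genes with a probe set 35 were lower and the median was -0.30. The median over the tested genes was -0.21 with control 1 left out in both fields. The genes with both lesion arrays below all 3 controls of their own field numbered 9 of 34 (26.5%), beside 7.55% of all genes tested. Both lay above in 1 (2.94%), beside 9.37%. Of the 20 neuronal genes outside release 6 (30%) had both below and 0 had both above.

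The controls themselves differed along the same axis. The release list, as the median of its 34 genes relative to each gene's mean over the arrays, stood at -0.07 in the CA3 lesion array and at 0.50, 0.33 and 0.01 in CA3 controls 1 to 3. It stood at -0.46 in the CA1 lesion array and at 0.04, -0.01 and -0.37 in CA1 controls 1 to 3. Control 3 was lowest of the controls in both fields. The median release gene of the CA3 lesion array differed by -0.63 from CA3 control 1, -0.39 from control 2 and 0.00385 from control 3. In CA1 these differences were -0.46, -0.48 and -0.05. Against control 3 alone, 16 of 34 genes were lower in CA3 and 18 of 34 in CA1.

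Glial signal moved in the opposite direction across the same arrays. The 11 tested microglia markers stood at 1.78 in the CA3 lesion array and at -1.78, -1.25 and 1.40 in CA3 controls 1 to 3, and at 2.14 in the CA1 lesion array and -2.08, -1.0 and 1.34 in CA1 controls. For the 9 myelin and oligodendrocyte genes tested these were 1.22, against -1.70, -0.14 and 0.94, in CA3, and 1.30, against -2.37, -0.13 and 1.11, in CA1. The 20 neuronal genes outside release stood at -0.20 in the CA3 lesion array and 0.61, 0.34 and -0.09 in CA3 controls, and at -0.42 in the CA1 lesion array and 0.17, 0.04 and -0.29 in CA1 controls. All 20 were lower in the mean lesion effect, with a median of -0.41, and all 11 microglia and all 9 myelin genes were higher. A ratio of 3' to 5' Gapdh signal, a gauge of RNA integrity that is higher in degraded RNA, was 5.23 in the CA3 lesion array and 3.75 to 3.93 in CA3 controls, and 4.65 in the CA1 lesion array and 3.71 to 5.0 in CA1 controls. The same ratio for Actb did not set the lesion arrays apart, at 19.8 in the CA3 lesion array and 15.0 to 21.4 in CA3 controls, and at 17.3 in the CA1 lesion array and 14.5 to 22.2 in CA1 controls. The part of glial content and of these ratios in the lesion differences was not tested.

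**Figure D4:**
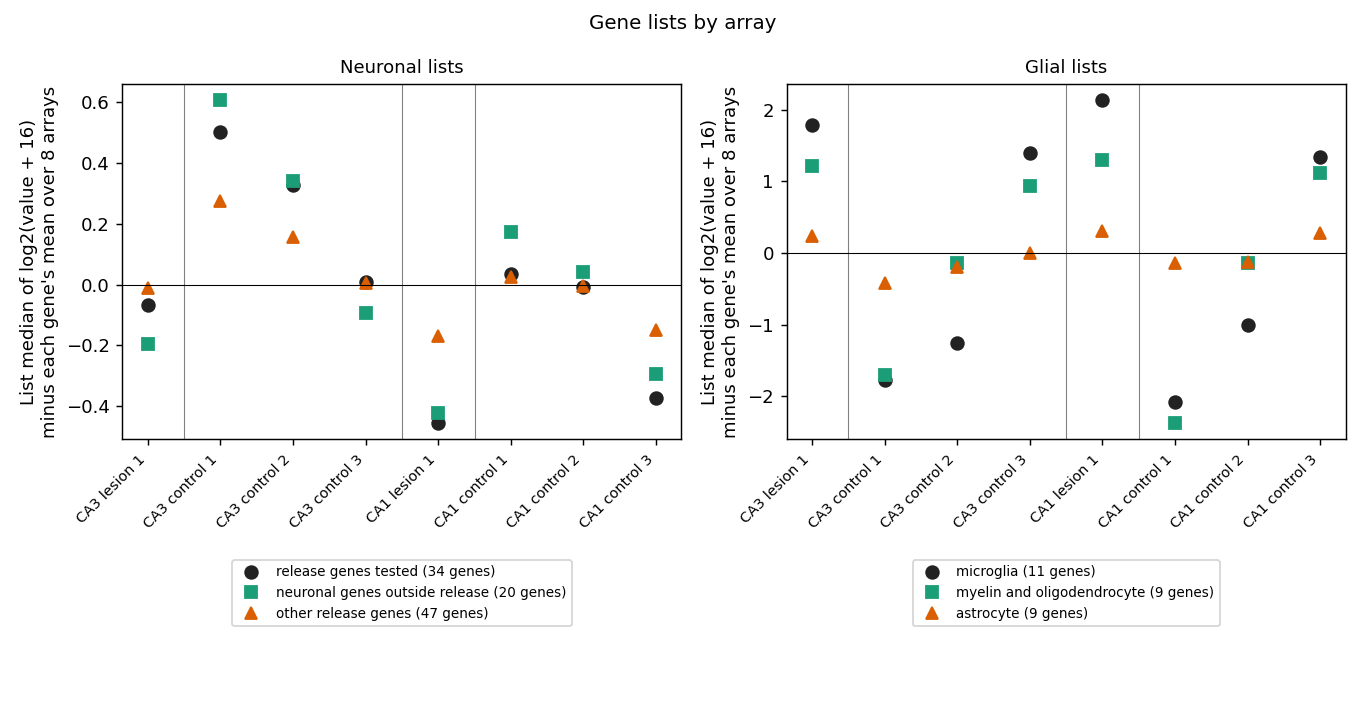
List medians by array, each gene taken as log2(value + 16) minus its mean over the 8 arrays; left, the 34 tested release genes, 20 other neuronal genes and 47 further release genes; right, microglia, myelin and astrocyte markers. In both fields the neuronal lists were lowest in the lesion array and control 3 and the glial lists highest there.

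Genes of the fusion machinery were the most frequent among the 9, with 5 of 8 tested SNARE genes and regulators below all controls in both fields. All 8 had a negative mean lesion effect, with a median of -0.44. Vamp1, a vesicle SNARE (synaptobrevin), read 12.99 in the CA3 lesion array and 14.44, 13.79 and 13.74 in CA3 controls 1 to 3. It read 12.24 in the CA1 lesion array and 14.02, 13.34 and 13.17 in CA1 controls. Against the nearest control the lesion arrays differed by -0.75 in CA3 and -0.93 in CA1, so neither field overlapped. The mean effect was -1.14 ± 0.26 (SE, 2.20-fold lower, 2 lesion arrays against 6 controls, limma adjusted p = 0.589). Its 2 dimmer probe sets had mean effects of -0.47 and -0.90, with lesion arrays inside the control range in CA3. With single arrays or control pairs left out, the mean effect of the brightest one ran from -1.28 to -0.90.

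The Vamp1 promoter window (RefSeq, GRCr8, chr4:159698644-159698943, plus strand) is shown as that of the SNARE gene with the largest mean lesion effect in the list. Capitals mark TGACGTCA, the cAMP response element (CRE) bound by the activity-regulated factor CREB, and the GC box letters GGGCGG.
Vamp1: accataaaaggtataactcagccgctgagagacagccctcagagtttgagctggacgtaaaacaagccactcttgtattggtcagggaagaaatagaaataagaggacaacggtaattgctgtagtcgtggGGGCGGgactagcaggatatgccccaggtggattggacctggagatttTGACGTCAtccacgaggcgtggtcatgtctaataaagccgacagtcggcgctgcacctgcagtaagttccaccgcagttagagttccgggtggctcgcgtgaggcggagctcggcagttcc
The CRE begins 71 bases before the start and the GC box 119 bases before it. A full CRE, which reads the same on both strands, occurs in 3 of the 36 windows of the list (8.33%), those of Syn1, Vamp1 and Sh3gl2, against 1.91% of 27457 promoters. The match describes the letters only, and Syn1 and Sh3gl2 had mean lesion effects of -0.27 and -0.06.

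Vamp2, the synaptobrevin best known from forebrain synapses, read 13.37 in the CA3 lesion array and 14.05, 13.50 and 13.50 in CA3 controls. In CA1 it read 13.10 in the lesion array and 14.27, 13.70 and 13.58 in controls. Both lesion arrays were lowest, though in CA3 by a small margin (mean effect -0.54 ± 0.23, SE, limma adjusted p = 0.771, with -0.32 in CA3 and -0.75 in CA1). Cplx1 read 14.30 in the CA3 lesion array and 14.98, 14.84 and 14.53 in CA3 controls, and 13.70 in the CA1 lesion array and 14.83, 14.76 and 14.09 in CA1 controls. Its mean effect was -0.67 ± 0.22 (SE, limma adjusted p = 0.771), and ran from -0.86 to -0.48 with single arrays or control pairs left out.

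Napb and Nsf, which work together on used SNARE complexes, lay below all controls in both fields. Napb read 13.80 in the CA3 lesion array and 14.65, 14.57 and 14.19 in CA3 controls, and 13.08 in the CA1 lesion array and 13.88, 14.01 and 13.47 in CA1 controls. Its mean effect was -0.69 ± 0.20 (SE, limma adjusted p = 0.771), and ran from -0.84 to -0.62 with single arrays or control pairs left out. Nsf had a smaller effect of -0.35 ± 0.16 (SE), and its 2 other probe sets gave -0.59 and -0.53, each with both lesion arrays below all controls. Snap25 and Stx1a had mean effects of -0.34 and -0.15, with the CA3 lesion array inside the control range.

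Amphiphysin (Amph), which links dynamin to clathrin-coated membrane, had the largest mean lesion effect of the tested genes. It read 6.37 in the CA3 lesion array and 10.12, 9.37 and 9.48 in CA3 controls, and 8.79 in the CA1 lesion array and 10.42, 9.88 and 9.57 in CA1 controls. The CA3 lesion value was far below every other array and below the brightness filter of 8.35, where signals scatter widely, so no fold is given. On the log2 scale the mean effect was -2.23 ± 0.49 (SE, limma adjusted p = 0.556), made up of -3.28 in CA3 and -1.17 in CA1. The test of the difference between these gave an adjusted p of 1.00 in limma (unadjusted p = 0.0570). Synj1 also lay below all controls in both fields (mean effect -0.33), as did Sv2a (-0.58 ± 0.25, SE) and Syt4 (-0.34 ± 0.18, SE, with -0.50 in CA3 and -0.19 in CA1). For Syt4 the sign depended on the probe set, since the mean of both probe sets gave 0.14.

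**Figure D5:**
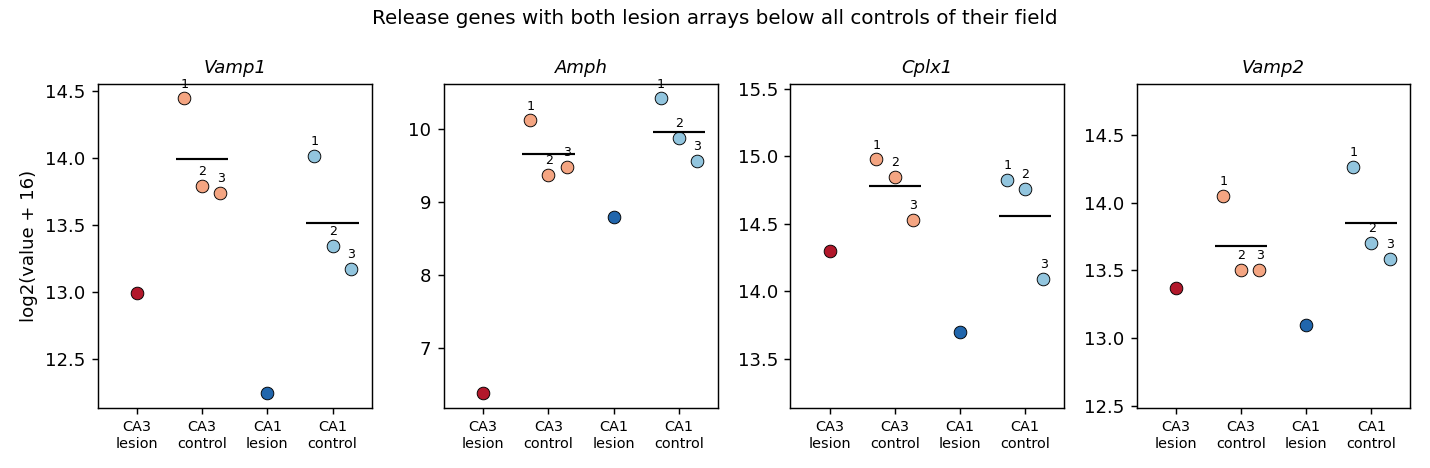
Signal, in log2(value + 16), of 4 release genes with both lesion arrays below all controls of their field; each point is 1 array, numbers give the control array, and lines are control means. The lesion arrays are lowest in each field, with the widest gap for Amph in CA3 (6.37 against 9.37 in the nearest control).

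Rab3c, a vesicle Rab protein, was the only tested gene with both lesion arrays above all controls of their field. It read 10.35 in the CA3 lesion array and 9.77, 9.21 and 9.77 in CA3 controls, and 9.68 in the CA1 lesion array and 9.22, 9.58 and 9.48 in CA1 controls. The mean effect of 0.51 ± 0.39 (SE, limma adjusted p = 0.819) was close to its own error. The other 4 tested genes with a positive mean effect were Sv2b (0.78), Rab3b (0.57), Unc13b (0.35) and Sypl1 (0.30). Sypl1 is the broadly expressed member of the list named above.

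In the CA1 lesion array 16 of 34 genes (47.1%) lay below all 3 CA1 controls, beside 23% of all genes tested. The share was 40% (8 of 20) for the neuronal genes outside release. Above all 3 controls lay 4 of the 34 (11.8%), beside 23.4% of all genes tested and 0 of those 20. In limma 0 passed (0% of all genes), and 4, all lower, had an unadjusted p under 0.05, beside 2.14% of all genes. The largest effects of these 4 were those of Vamp1 (-1.27 ± 0.37, SE, 2.41-fold lower) and Cplx1 (-0.86 ± 0.31), and Vamp2 and Napb followed at -0.75 and -0.71. Syp read 13.93 in the CA1 lesion array, against 14.57, 14.99 and 14.30 in CA1 controls (-0.69 ± 0.37, SE). The 4 genes above all CA1 controls were Sypl1 (0.35 ± 0.30, SE), Sv2b (0.69 ± 0.75), Rab3c (0.26 ± 0.55) and Stxbp5 (0.08 ± 0.26). The Sypl1 effect was 0.16 without CA1 control 2, and that of Rab3c 0.15 without CA1 control 1. For Sv2b and Stxbp5 the mean over all probe sets of the gene had the opposite sign.

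In the CA3 lesion array 14 of 34 genes (41.2%) lay below all 3 CA3 controls, beside 23.9% of all genes tested. The share was 75% (15 of 20) for the neuronal genes outside release. Above all 3 controls lay 4 of the 34 (11.8%), beside 29.3% of all genes tested and 0 of those 20. In limma 0 passed (0% of all genes), and Amph, Vamp1 and Napb had an unadjusted p under 0.05, all lower, beside 2.78% of all genes. Vamp1 had an effect of -1.0 ± 0.37 (SE) and Napb of -0.67 ± 0.28. The dimmer probe set of Synpr lay inside the CA3 control range in the CA3 lesion array, with an effect of -0.23. The brightest one read 12.52 in the CA3 lesion array, against 13.50, 13.42 and 12.83 in CA3 controls (-0.73 ± 0.35, SE). In CA1 the Synpr effect was -0.05, and the test of that difference gave an unadjusted p of 0.196 in limma. Sv2a had an effect of -0.73 ± 0.35. The 4 genes above all CA3 controls were Unc13b (1.68 ± 0.98, SE), Rab3b (0.87), Sh3gl2 (0.73) and Rab3c (0.77). Without CA3 control 2 the Unc13b effect was 0.96.

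The lesion effects of the 2 fields could not be told apart gene by gene. The test of their difference passed for 0 of 34 release genes in limma (0% of all genes tested), with 1 unadjusted p under 0.05, of a positive difference, beside 1.44% of all genes. The 4 smallest p-values belonged to Sh3gl2 (1.59 ± 0.71, SE, CA3 minus CA1), Amph (-2.12 ± 0.99), Unc13b (2.66 ± 1.38) and Rims2 (-2.73 ± 1.82). The list medians were -0.31 in CA3 and -0.31 in CA1. Leaving out CA3 control 1 gave a CA3 median of -0.16, leaving out CA3 control 3 gave -0.49, and the CA1 median was -0.47 without CA1 control 3. Cadps and Cadps2 had mean lesion effects of -0.08 and -0.22.

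The 47 tested genes of the wider release set had a median mean lesion effect of -0.15, with 33 lower and 14 higher. Of these, 0 passed. Lower by the smallest p were Nrxn3 (-0.61 ± 0.24, SE), the lipid kinase gene Pip5k1c (-0.52) and the dynamin gene Dnm2 (-1.18), and higher were Syngr2 (1.13), Bin1 (0.28) and Stxbp6 (0.27).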

How the data were processed

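Total RNA of 8 pools of 15 rat slice cultures was measured on expression arrays with 31099 probe sets. The deposited values are linear intensities, 1 per probe set and array, and the 2% trimmed mean of each array lies near 2501, so they appear scaled to a common mean. The sources used here do not give the software or summarisation. Groups came from the sample titles. Intensities were converted to log2(value + 16), the 57 control probe sets were removed, and probe sets with a mean under the 40th percentile (8.35) were not tested, which left 18625 probe sets and 10844 named genes. Symbols came from the platform annotation; all 46 genes matched RefSeq (GRCr8) by gene identifier. limma 3.58.1 in R 4.3.3 estimated a coefficient for each of the 4 groups from the 8 arrays jointly (intensity trend, 4 residual degrees of freedom, Benjamini-Hochberg adjustment). The fit was tested on simulated data with changes planted between the fields only, and none in the lesion contrasts. Arrays have no depth, and their number limits the precision. The members, lists and tests were chosen with earlier results of these data known. Named per direction, beside genes past the threshold, are up to 10 members without overlap between the fields, up to 8 with both lesion arrays beyond their controls, up to 5 per single field and the 4 smallest p-values of the difference, by p; a few other members are named after their values were seen. Tried as alternatives were pseudocounts of 1 and 64, quantile normalisation, the 60th percentile or no filter, no intensity trend, probe sets with cross-hybridisation suffixes removed, the mean of all probe sets, the replicate number as a block, controls alone, and single arrays or control pairs left out.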

Additional observations from a re-analysis of the deposited data

Results flagged for a closer look

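In 2 tested genes the lesion arrays lay beyond all 3 controls of their field in opposite directions. Unc13b, a Munc13 priming factor, read 10.07 in the CA3 lesion array, above the CA3 controls at 9.54, 6.94 and 8.69, and 8.64 in the CA1 lesion array, below the CA1 controls at 9.26, 9.89 and 9.72. Set against each other, as CA3 minus CA1, the lesion effects differed by 2.66 (SE 1.38, limma adjusted p = 1.00, unadjusted p = 0.0824). Sh3gl2 (endophilin) read 11.17 in the CA3 lesion array, above the CA3 controls, the highest of which was 10.70, and 9.40 in the CA1 lesion array, below the CA1 controls, the lowest of which was 9.72. Its difference was 1.59 (SE 0.71, limma adjusted p = 1.00, unadjusted p = 0.0482). With 1 lesion array per field there was no replicate check of either pattern, and 923 of 10844 genes tested (8.51%) showed such opposite positions, against 2 of 34 release genes (5.88%).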

How the results depend on the processing

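The 4 list medians kept their sign in every alternative run. The field median ran from 0.22 to 0.52 and the mean lesion median from -0.43 to -0.21 when single arrays or control pairs were left out, the CA1 lesion median from -0.47 to -0.23 and the CA3 lesion median from -0.49 to -0.16. Of these settings, leaving out CA3 control 1 gave the lowest field median (0.22). The count of list members called for the field ran from 0 to 1 in these settings, was 2 with no filter (Cadps2 and Syn2) and 0 without an intensity trend, where 10 members had an unadjusted p under 0.05. For the mean lesion effect it ran from 0 to 3, the 3 (Cplx1, Napb and Vamp1) being called without control 3 of both fields, and for the CA1 effect, the CA3 effect and their difference it stayed at 0. Control 3 was the control nearest the lesion array in release list score, at 0.01 against -0.07 in CA3 and -0.37 against -0.46 in CA1. The cause of these shifts between settings was not tested. With the replicate number as a replicate block (2 residual degrees of freedom) 9 members were called for the field, 8 for the mean lesion effect, 3 in CA1 and 2 in CA3. Of all 10844 genes tested 1.32% were then called higher and 0.848% lower for the field, 3.35% and 1.43% for the mean lesion effect, 1.53% and 0.295% in CA1 and 1.49% and 0.507% in CA3, and the CA1 lesion median was -0.56. The 9 were Cadps2, which was lower, and Cadps, Napb, Snap25, Snap91, Stx1a, Syn2, Synpr and Syt4. The members of the lesion counts were all lower, and the 8 were Amph, Bsn, Cplx1, Dnm1, Napb, Snap91, Vamp1 and Vamp2. Both lesion arrays carry number 1, so the mean lesion effect of the block fit compares them with control 1 of each field only. Control 1 had the highest release list score in both fields, at 0.50 in CA3 and 0.04 in CA1. Deviations of equal-numbered CA3 and CA1 controls correlated at 0.155, 0.0601 and 0.306 across probe sets, and each control correlated best with its own number. That is a hint from the data only. Over the 34 tested release genes equal-numbered controls correlated at -0.0067, 0.076 and 0.065. There each CA3 control correlated best with a CA1 control of another number, at 0.314, 0.126 and 0.291. The block was thus not treated as a pairing. Signs turned for Syt4 in the mean lesion effect (0.14 with the mean of all probe sets), and in CA1 for Sv2b (-0.17 with that mean, -0.016 with the block) and Stxbp5 (-0.088 and -0.045). The remaining alternatives changed no other call of a named gene beside those of Cadps2 given in the results. Arrays near background limit the 12 dim genes, for which no detection calls were used here.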
